A study of Mus musculus with 15 samples.

Results

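Alveolar macrophages of 12-week-old Cybb knockout mice were set against those of wild-type mice of the same age. The comparison took the 6 libraries that the labels give as 12-week CD11b-low cells, 3 knockout (KO) and 3 wild type (WT), out of 15 libraries in all. The knockout mice, labelled CGD for chronic granulomatous disease, lacked Cybb on C57BL/6, the WT mice were C57BL/6, and all were naive. Each library came from sorted lavage cells pooled from 2 to 3 mice, and the gate was CD45+ Ly6G- SiglecF+ CD11c+ with low surface CD11b. The other 9 libraries, 3 in each group, were CD11b-low cells from 4-week KO mice, CD11b-high cells from 12-week KO mice and CD11b-low cells from 4-week WT mice. The labels name no Cre driver or cell type for the deletion, so it is not given as restricted to macrophages.

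Cybb encodes NOX2, also called gp91phox, the membrane-bound catalytic subunit of the phagocyte NADPH oxidase. The oxidase passes electrons from NADPH to oxygen and makes the superoxide of the respiratory burst, and patients without it have recurrent infections, granulomas and sterile inflammation. Alveolar macrophages live in the airspaces, where they take up surfactant lipid, inhaled particles and dying cells.

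The 12-week KO libraries held 33888047 to 36367786 counts and the 12-week WT libraries 23445956 to 36347204. WT replicate 1 stood apart from the other WT libraries. Its root mean square log2 distance to them was 1.14 and 1.13, against 0.703 between WT replicates 2 and 3, and KO libraries lay 0.764 to 0.905 from each other. Counts below are also given without it where that moves them by over 1.5 times. Genes encoded by the mitochondrial genome took 0.505% to 0.801% of counts in KO libraries and 1.13% to 1.29% in WT libraries. Of these genes, mt-Co2, mt-Co3, mt-Atp6, mt-Atp8 and mt-Nd4l had at most 1 count in any library. The shares thus hold almost none of their reads. The pools are separate replicates, and n = 3 per group throughout.

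Cybb itself was examined before any other gene. Its identifier in the files is ENSMUSG00000015340, and it had 134, 186 and 169 CPM (counts scaled by TMM factors to a common library size) in KO replicates 1, 2 and 3, and 899, 957 and 1221 CPM in WT replicates 1, 2 and 3. All KO libraries were below all WT libraries, and the difference was -2.65 on the log2 scale with an SE of 0.25 (adjusted p = 2.1e-05 by edgeR's quasi-likelihood test). All adjusted p-values below come from this two-sided test over 13284 genes. Which part of the gene was deleted is not given in the labels, and reads from outside that part would still be counted. Among the 9 tested genes of the oxidase and its regulators, Cybb was the only one called. Cyba, which encodes the partner subunit p22phox, had 3709, 2181.5 and 4030.0 CPM in KO and 5147, 4875 and 3656 CPM in WT libraries, which overlapped (log2 fold change -0.46, adjusted p = 0.35). Hvcn1, the proton channel that balances the charge moved by the oxidase, had 417, 541 and 447 CPM in KO and 179.9, 394 and 406 CPM in WT libraries (adjusted p = 0.27). Of the 10 genes nearest to Cybb on the X chromosome, 5 on each side, only Dynlt3, a dynein light chain, had enough counts to be tested, and its log2 fold change was 0.26 (adjusted p = 0.60), or -0.011 without WT replicate 1.

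The sort markers of the gate were detected in both groups and none was called. Siglecf, which encodes the SiglecF of the gate, had 185, 245 and 290.0 CPM in KO and 213, 308 and 308 CPM in WT libraries. Itgax (CD11c) had 520.0, 386 and 321 CPM in KO and 490.5, 205 and 252 CPM in WT libraries. Ly6g had no count in any of the 6. Itgam, the gene of CD11b, had 3.11, 4.44 and 6.26 CPM in KO and 0.805, 1.65 and 2.24 CPM in WT libraries. Its KO libraries were all above the WT ones, but the difference missed the threshold (log2 fold change 1.56, SE 0.43, adjusted p = 0.058). Of 37 tested genes of alveolar macrophage identity, 31 were not called. Their summed level was 83537 to 91110 CPM of the library total in KO libraries and 64835 to 90050 in WT libraries, with WT replicate 1 lowest.

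Adult KO libraries differed from WT libraries mostly by higher genes. These were bulk libraries, and the part of other cell types in this difference was not tested. Of 13284 genes tested, 412 were called at an adjusted p under 0.05, which is 3.10% of them. Of the called genes 346 were higher in KO (2.60% of all tested) and 66 lower (0.497%). The median log2 fold change was 2.37 for the higher genes, -1.36 for the lower genes and -0.04 over all genes tested. Of the higher genes, 161 had under 10 CPM in KO cells. An unadjusted p under 0.05 was reached by 2724 genes, 20.5% of those tested. KO and WT libraries did not overlap in 404 of the 412, against 17.8% of all genes tested. The test that chose the 412 used these same libraries, so this follows largely from the choice and is no further support. Without WT replicate 1 there were 257 calls, of which 209 were among the 412, without WT replicate 2 there were 271, of which 224 were, and without KO replicate 2 there were 230, of which 214 were. The lower genes numbered 38 without WT replicate 1, 27 without KO replicate 1 and 23 without KO replicate 2.

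Among gene lists from textbook knowledge with at least 10 tested members, T and NK cell markers, CC and CXC chemokines, eicosanoid and phospholipase genes, matrix proteases and lipid-associated macrophage genes had the largest shares of members higher in KO. Of the same lists, erythroid genes had the largest share that was lower. The lists and their members were chosen with earlier results of these data known, so this ranking is only a description. The plot of list counts shows each list with 3 or more called members.

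**Figure D1:**
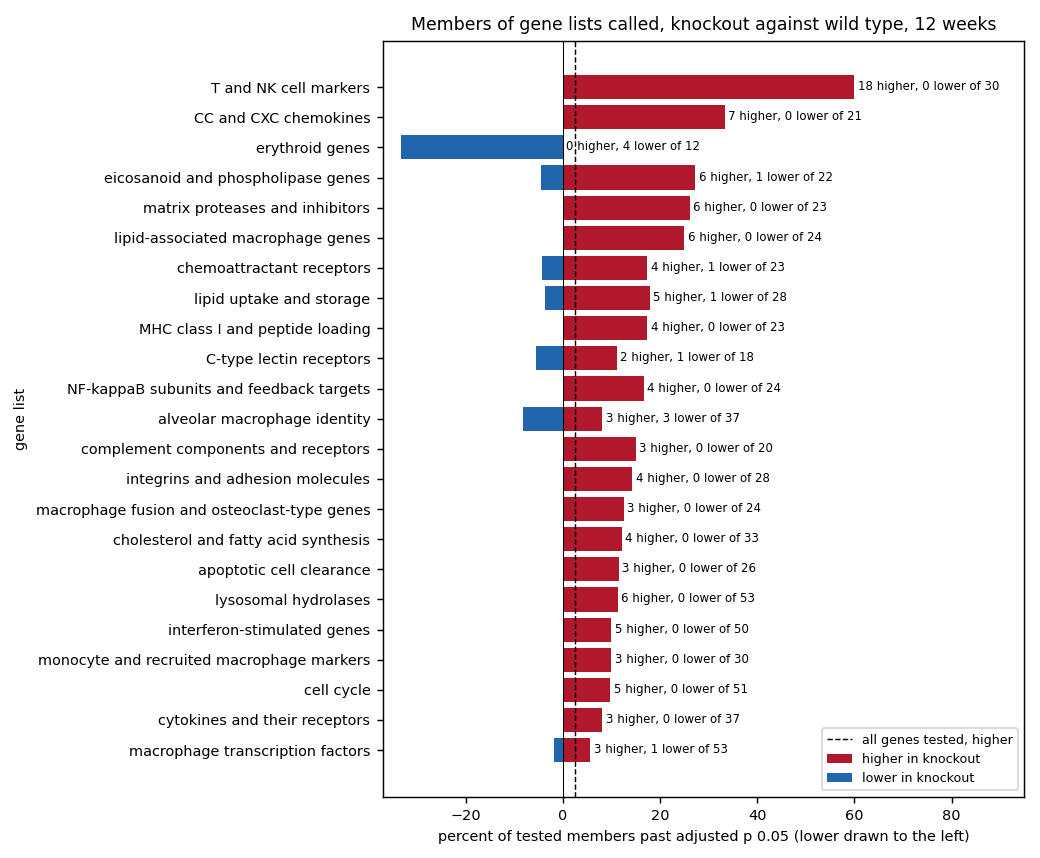
Percent of the tested members of each gene list called in knockout against wild-type CD11b-low libraries at 12 weeks. Higher members are to the right in red and lower members to the left in blue. Lists shown have at least 10 tested genes and 3 or more calls. The dashed line is the 2.60% of all tested genes that were called higher, and T and NK cell markers reach farthest to the right with 18 of 30.

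The genes with large rises at 10 CPM or more included secreted and surface proteins. They were named only where KO and WT libraries did not overlap, so that separation was set by the choice. Fstl1 (ENSMUSG00000022816), a secreted follistatin-like glycoprotein, had 560.0, 187 and 395 CPM in KO libraries and 4.06, 4.49 and 3.97 CPM in WT libraries. The WT libraries were close to each other, and the lowest KO library was far above them (log2 fold change 6.51, SE 0.52, adjusted p = 2.7e-06). Mfge8, the secreted bridge between phosphatidylserine on dying cells and integrins on phagocytes, had 1458, 345 and 424 CPM in KO and 12.0, 33.7 and 28.2 CPM in WT libraries. KO replicate 1 held most of that signal, and the fold change was 4.91 with all libraries and 3.96 without it. Anpep, the surface aminopeptidase CD13, had 40.2, 36.2 and 25.5 CPM in KO and 1.45, 1.21 and 1.09 CPM in WT libraries. Its groups were narrow and far apart, and its adjusted p was the smallest of the 13284 genes (log2 fold change 4.76, SE 0.30, adjusted p = 1.1e-07).

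H2-M2, a nonclassical MHC class I gene, had 316, 122 and 92.0 CPM in KO and 4.39, 1.59 and 1.09 CPM in WT libraries, and its log2 fold change of 6.22 (adjusted p = 9.4e-05) ranged from 5.50 without KO replicate 1 to 7.02 without WT replicate 1. Wfdc17, a secreted protein with a WAP domain, had 2151, 458 and 1339 CPM in KO and 165, 123 and 106 CPM in WT libraries (log2 fold change 3.32, SE 0.44, adjusted p = 0.00035). Its KO libraries spread widely, yet the lowest KO library was above every WT library. Cd200r2, of the CD200 receptor family, had 61.0, 20.4 and 43.2 CPM in KO and 0.241, 2.20 and 2.69 CPM in WT libraries (adjusted p = 0.00036). Slc39a2, a zinc transporter, had 2637, 949 and 1466 CPM in KO and 216, 512 and 422 CPM in WT libraries (log2 fold change 2.13, adjusted p = 0.0071).

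Further genes of this rank were named by the same rule, which required that the groups not overlap. Stra6l, a receptor for retinol-binding protein, had 85.5, 46.5 and 48.2 CPM in KO and 6.88, 10.1 and 9.81 CPM in WT libraries (log2 fold change 2.75, SE 0.36, adjusted p = 0.00033). Awat1, a wax alcohol acyltransferase, had 398, 82.2 and 105 CPM in KO and 7.28, 9.39 and 10.4 CPM in WT libraries, with a log2 fold change of 4.43 that was 3.37 without KO replicate 1. Fkbp11, a prolyl isomerase of the endoplasmic reticulum, had 65.0, 16.6 and 43.3 CPM in KO and 4.99, 5.82 and 3.24 CPM in WT libraries (adjusted p = 0.00055). Ass1, the argininosuccinate synthase of arginine synthesis, rose by 4.03 on the log2 scale to 11.6 ± 5.96 CPM in KO, against 0.686 ± 0.457 CPM in WT cells (SD, adjusted p = 0.00015), and by 4.76 without WT replicate 2. Lrrc27, a leucine-rich repeat gene, Gng8, a G protein gamma subunit, and Fam20c, a kinase of secreted proteins, rose by 3.60, 4.46 and 5.29 (adjusted p = 0.00033, 3.4e-05 and 0.0010). Lrrc27 stood at 2.88 without KO replicate 1, and Fam20c at 4.58 without KO replicate 1 and 7.42 without WT replicate 1.

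**Figure D2:**
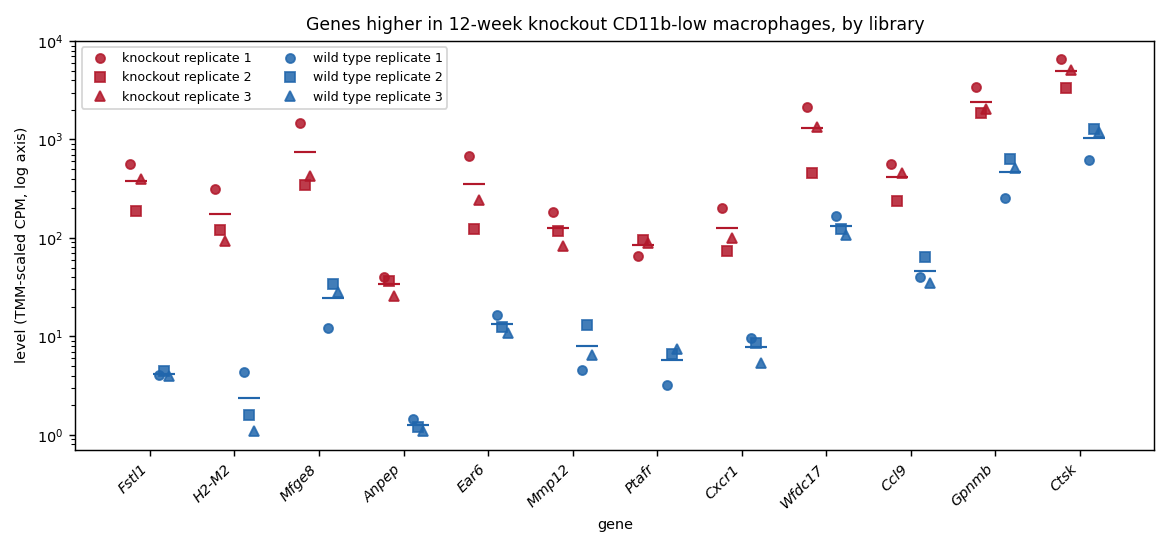
Level of 12 genes higher in knockout cells, in TMM-scaled CPM on a log axis, with 1 point per library and a bar at the group mean. Knockout libraries (red) stand left of wild-type libraries (blue) for each gene, and no pair of groups overlaps, as the rule for naming genes required. The circle of KO replicate 1 is the highest knockout point for every gene shown except Ptafr.

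Genes of lysosomes, of tissue breakdown and of the macrophages that form around lipid were higher in KO cells in part, with most members of each list not called. Ctsk, the collagen-degrading cathepsin K, had 6520.3, 3372 and 5056 CPM in KO and 623, 1285 and 1189 CPM in WT libraries, with no overlap (log2 fold change 2.27, SE 0.34, adjusted p = 0.0010). Gpnmb, a lysosomal membrane glycoprotein of lipid-laden macrophages, had 3402, 1841 and 2039 CPM in KO and 253, 638 and 507 CPM in WT libraries (log2 fold change 2.38, SE 0.35, adjusted p = 0.00083). Mmp12, the macrophage elastase, had 182, 117 and 83.4 CPM in KO and 4.51, 13.1 and 6.48 CPM in WT libraries (log2 fold change 3.98, SE 0.52, adjusted p = 0.00033). In all 3 genes the WT library closest to the KO group was replicate 2.

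Of 24 tested lipid-associated macrophage genes, 6 were higher and none lower, with a median log2 fold change of 0.68. The others called were Cd63, a tetraspanin of late endosomes, Ctsl, a lysosomal cysteine protease, and Syngr1, a vesicle membrane protein. Cd63 had 1631, 528 and 1084 CPM in KO and 306, 351 and 259.5 CPM in WT libraries (log2 fold change 1.82, adjusted p = 0.010). Of 23 tested matrix proteases and inhibitors, 6 were higher and none lower. Mmp14, the membrane-bound activator of other metalloproteinases, had 10.8, 2.77 and 2.19 CPM in KO and 0.201, 0 and 0 CPM in WT libraries, so that its fitted log2 fold change of 6.25 rests on 1 WT library with counts. It was 5.18 without KO replicate 1 and 5.59 without WT replicate 2 (adjusted p = 0.0014 with all libraries), and without WT replicate 1 no WT library had a count to set it against. Adam17, the sheddase of tumour necrosis factor, rose by 1.22 (adjusted p = 0.015), and the call was lost without KO replicate 2 or WT replicate 2 (adjusted p up to 0.080). Dcstamp, which macrophages need to fuse into giant cells and osteoclasts, had 177, 76 and 188 raw counts in KO and 0, 1 and 1 in WT libraries (adjusted p = 0.00012).

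Among 53 tested lysosomal hydrolases and membrane proteins, 6 were higher and none lower, with a median of 0.38. Acp2, the lysosomal acid phosphatase, had 204, 205 and 196 CPM in KO and 51.9, 94.6 and 106 CPM in WT libraries (log2 fold change 1.26, SE 0.25, adjusted p = 0.0098). Gla, the alpha-galactosidase deficient in Fabry disease, had 184, 148 and 213 CPM in KO and 43.5, 91.3 and 85.5 CPM in WT libraries (log2 fold change 1.31, adjusted p = 0.015). Acp5, the tartrate-resistant phosphatase of osteoclasts, and Ctsl rose by 1.02 (adjusted p = 0.041) and 1.12 (adjusted p = 0.039). Acp5 was not called without KO replicate 1 or WT replicate 1 or 3 and Ctsl not without KO replicate 1 or 3 or WT replicate 1, 2 or 3, with adjusted p up to 0.13 and 0.12, and Gla reached 0.052 without KO replicate 3. Of 17 subunits of the proton pump that acidifies lysosomes, only Atp6v1a was called. It had 435, 495 and 556 CPM in KO and 139.7, 233 and 241 CPM in WT libraries, with no overlap (log2 fold change 1.27, SE 0.24, adjusted p = 0.0063).

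Promoters of the lysosomal genes were searched for the CLEAR box TCACGTGA, which binds the lysosomal regulator TFEB and its relatives. Of 42 tested hydrolase genes with a promoter in the RefSeq table, 5 held it, and so did 3 of 12 proton pump subunits, against 2.18% of tested genes with a promoter, 1.95% of the genes called higher and 0.974% of all 32851 promoters. The motif is its own reverse complement, so both strands match at the same place. The 2 promoters of called members that hold it are shown from 250 bases before to 50 after the gene start, on GRCm38.p6, with the box in capitals.
Atp6v1a, chr16:44139210-44139509, minus strand: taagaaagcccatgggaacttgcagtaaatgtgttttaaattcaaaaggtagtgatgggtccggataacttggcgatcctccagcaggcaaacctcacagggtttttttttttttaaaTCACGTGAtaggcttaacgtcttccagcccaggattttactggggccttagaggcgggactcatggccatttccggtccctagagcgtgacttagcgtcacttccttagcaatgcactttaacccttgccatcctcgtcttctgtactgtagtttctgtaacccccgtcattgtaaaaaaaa
Gla, chrX:134600956-134601255, minus strand: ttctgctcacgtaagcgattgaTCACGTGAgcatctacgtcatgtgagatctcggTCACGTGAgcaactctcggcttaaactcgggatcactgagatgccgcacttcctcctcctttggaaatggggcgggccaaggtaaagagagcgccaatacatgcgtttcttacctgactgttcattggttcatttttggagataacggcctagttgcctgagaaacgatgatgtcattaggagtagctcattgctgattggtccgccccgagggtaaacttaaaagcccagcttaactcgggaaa
Atp6v1a holds 1 box and Gla 2. A match describes the letters and is no evidence of binding in these cells.

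Genes of lipid uptake, storage and synthesis were higher in part. Of 28 tested uptake and storage genes, 5 were higher and 1, Fabp1, lower. Msr1, the scavenger receptor for modified lipoproteins, had 65.4, 24.3 and 36.5 CPM in KO and 9.42, 17.0 and 12.7 CPM in WT libraries (log2 fold change 1.69, SE 0.33, adjusted p = 0.0073). Soat1, which esterifies cholesterol for storage, had 292, 575 and 525 CPM in KO and 114, 211 and 271 CPM in WT libraries, with no overlap (log2 fold change 1.22, adjusted p = 0.040). Of 33 tested genes of cholesterol and fatty acid synthesis, 4 were higher and none lower, with a median of 0.54. Among them were Insig1, a feedback regulator of sterol synthesis, at 1.19, Sc5d, a late sterol desaturase, at 1.15, and Scd1, the stearoyl-CoA desaturase, at 1.22 (adjusted p = 0.026, 0.0498 and 0.0498). None of the 4 calls held without KO replicate 2, KO replicate 3 or WT replicate 1, where the list medians were 0.43, 0.63 and 0.39, and 1 held without WT replicate 2. The uptake and storage list had 2 higher members without KO replicate 2, 3 without KO replicate 3 or WT replicate 1 and 1 without WT replicate 2. Soat1 was lost without KO replicate 2 or 3 or WT replicate 1 or 2 (adjusted p up to 0.14). The sterol element TCACCCCAC was in 1 of 24 tested synthesis genes with a promoter, against 0.646% of all tested genes with one and 0.551% of all promoters. Only 2 of the 4 called members had a promoter to search, and neither held it.

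Of 51 tested cell cycle genes, 5 were higher, by 0.92 to 1.51 on the log2 scale, and none was lower. Plk1, the mitotic kinase, had 8.45, 12.0 and 6.13 CPM in KO and 2.01, 3.50 and 3.79 CPM in WT libraries (log2 fold change 1.51, adjusted p = 0.022). Nusap1, a spindle protein, had 62.4, 56.8 and 47.6 CPM in KO and 27.3, 29.1 and 27.5 CPM in WT libraries (log2 fold change 0.99, adjusted p = 0.022). Tpx2, Ccnb1 and Prc1 were the others, at 0.92, 1.07 and 1.0. The list had no call without KO replicate 2, 3 without KO replicate 3, 2 without WT replicate 1 and 1 without WT replicate 2 or 3.

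Chemokines, their receptors and complement genes were higher in KO cells in part. Of 21 tested CC and CXC chemokines, 7 were higher and none lower, with a median of 1.51. Ccl9, a ligand of CCR1, had 559.7, 238 and 458 CPM in KO and 40.4, 63.4 and 34.6 CPM in WT libraries, far from overlap (log2 fold change 3.18, SE 0.36, adjusted p = 0.00010). Cxcl3, a neutrophil attractant, had 43.9, 22.98 and 28.8 CPM in KO and 2.09, 1.27 and 8.03 CPM in WT libraries (log2 fold change 3.09, SE 0.52, adjusted p = 0.0029). Its fold change was 4.25 without WT replicate 3, the highest WT library. Ccl4, a chemokine that attracts lymphocytes and monocytes, had 21.1, 15.02 and 25.5 CPM in KO and 4.31, 2.70 and 2.92 CPM in WT libraries (log2 fold change 2.63, adjusted p = 0.0075). Ccl3, a close relative of Ccl4, had 168, 60.0 and 114 CPM in KO and 19.8, 10.4 and 40.2 CPM in WT libraries (log2 fold change 2.29, adjusted p = 0.029). Pf4, Cxcl16 and Ccl17 were also called, the last at an adjusted p of 0.048 that was lost without any one of the 6 libraries. Ccl3 was lost without KO replicate 1 or 3 or WT replicate 1 or 2 (2.92 without WT replicate 3), Pf4 without KO replicate 1 or WT replicate 2 or 3, and Ccl4 and Cxcl16 without WT replicate 2, at adjusted p up to 0.14. The list had 4 calls without KO replicate 1 and 2 without WT replicate 2.

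Of 23 tested chemoattractant receptors, Ptafr, Gpr84, Gpr183 and the lymphocyte receptor Cxcr6 were higher and 1 was lower. Ptafr, the receptor for platelet-activating factor, had 66.2, 95.9 and 89.6 CPM in KO and 3.18, 6.55 and 7.48 CPM in WT libraries, and every KO library was well above every WT one (log2 fold change 3.87, SE 0.38, adjusted p = 3.4e-05). Cxcr1, a receptor of CXC chemokines that was not in the list, had 203, 73.0 and 98.9 CPM in KO and 9.62, 8.46 and 5.34 CPM in WT libraries (log2 fold change 4.00, SE 0.44, adjusted p = 9.4e-05). Gpr84, a receptor for medium-chain fatty acids, had 16.9, 9.48 and 8.06 CPM in KO and 1.33, 2.10 and 1.92 CPM in WT libraries (log2 fold change 2.68, adjusted p = 0.0040). Gpr183, the oxysterol receptor, rose by 3.13 (adjusted p = 0.025), a call lost without KO replicate 2 or 3 or WT replicate 1 or 3 (3.98 without WT replicate 2). Fpr2, a formyl peptide receptor, was the one that fell, to 124, 151 and 169.5 CPM in KO libraries, against 303, 245 and 236 CPM in WT libraries (log2 fold change -0.82, adjusted p = 0.037), and was lost without KO replicate 1 or 2 or WT replicate 1 or 2 (adjusted p up to 0.10).

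Of 20 tested complement genes, 3 were higher and none lower, with a median of 1.53. Cfb, factor B of the alternative pathway, had 40.5, 39.0 and 56.2 CPM in KO and 1.85, 7.13 and 8.67 CPM in WT libraries (log2 fold change 2.94, SE 0.39, adjusted p = 0.00033). C3, the central component that factor B acts on, had 165, 178 and 121 CPM in KO and 75.8, 31.8 and 43.3 CPM in WT libraries (log2 fold change 1.62, SE 0.31, adjusted p = 0.0063). Cd93, a C1q receptor-like surface protein, had 103, 38.1 and 41.7 CPM in KO and 8.85, 11.8 and 10.1 CPM in WT libraries, with a log2 fold change of 2.58 that was 1.96 without KO replicate 1 (adjusted p = 0.00073 with all libraries). Of 37 tested cytokines and receptors, 3 were higher. Il1a, the alarmin interleukin 1 alpha, had 169, 112 and 168 CPM in KO and 14.2, 42.2 and 52.1 CPM in WT libraries (log2 fold change 2.05, SE 0.37, adjusted p = 0.0044). Il1r2, the decoy receptor for interleukin 1, rose by 2.57 (adjusted p = 0.020), a call lost without WT replicate 1, and the list had 5 calls without WT replicate 3. Of 24 NF-kappaB genes, 4 were higher (2 without KO replicate 1), led by Tnip3, an inhibitor of the pathway, with 19.2, 11.5 and 9.82 CPM in KO and 0.523, 0.636 and 0.821 CPM in WT libraries (log2 fold change 4.35, SE 0.49, adjusted p = 0.00010). Tnip1, which acts on the same pathway, rose by 1.0 (adjusted p = 0.011). None of 19 inflammasome genes was called by edgeR, 4 had an unadjusted p under 0.05 (20.5% of all genes did), and DESeq2 called 2 of them and limma voom 1.

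The list of interferon-stimulated genes had a median above 0, with few calls. Of 50 tested, 42 had a higher mean in KO than in WT cells, 22 had an unadjusted p under 0.05 (20.5% of all genes did), 5 were called higher and none lower, and the median log2 fold change was 0.81. Oasl2, an antiviral protein of the oligoadenylate synthetase family, had 10.9, 8.11 and 1.66 CPM in KO and 0.402, 0.986 and 0.411 CPM in WT libraries (log2 fold change 3.48, SE 0.54, adjusted p = 0.0014). It was 4.07 without WT replicate 2. Usp18, which removes ISG15 and damps interferon signalling, had 11.1, 6.17 and 3.72 CPM in KO and 1.05, 0.541 and 2.10 CPM in WT libraries (log2 fold change 2.53, adjusted p = 0.011). Irgm1, a GTPase of pathogen vacuoles, had 66.1, 57.2 and 53.1 CPM in KO and 14.2, 32.8 and 33.3 CPM in WT libraries (log2 fold change 1.14, adjusted p = 0.0499). In all 5 called members KO replicate 1 was the highest KO library. Oas3 and Oas1g, both oligoadenylate synthetases, rose by 5.22 (adjusted p = 0.0047) and 2.86 (adjusted p = 0.012), and the second was 2.03 without KO replicate 1. The calls of Usp18 (3.16 without WT replicate 3), Oas1g and Irgm1 ended without WT replicate 1, where 3 members of the list were called and the median was 0.61. The list median was 0.50 without KO replicate 2. Irgm1 was also lost without KO replicate 1, 2 or 3 or WT replicate 2, and Usp18 without WT replicate 2 (adjusted p up to 0.11).

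The promoters of this list were searched on both strands for the interferon response element GAAANNGAAA, overlapping matches counted at each place. It stood in 23 of 36 tested members with a promoter in the RefSeq table and in 3 of the 4 called members with one. The share was 3.96% of all tested genes with a promoter and 3.44% of all promoters of the same length. It was 5.47% of the genes called higher and 10.2% (5 of 49) of the genes called lower. The promoters of the 3 called members follow, on GRCm38.p6 from 250 bases before to 50 after the gene start, with the matches in capitals.
Oas3, chr5:120777610-120777909, minus strand: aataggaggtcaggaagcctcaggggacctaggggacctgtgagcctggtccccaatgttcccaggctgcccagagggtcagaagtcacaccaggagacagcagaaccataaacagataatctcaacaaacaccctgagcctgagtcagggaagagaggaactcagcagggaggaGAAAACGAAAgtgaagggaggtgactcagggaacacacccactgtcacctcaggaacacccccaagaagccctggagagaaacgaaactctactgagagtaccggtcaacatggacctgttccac
Oas1g, chr5:120887564-120887863, minus strand: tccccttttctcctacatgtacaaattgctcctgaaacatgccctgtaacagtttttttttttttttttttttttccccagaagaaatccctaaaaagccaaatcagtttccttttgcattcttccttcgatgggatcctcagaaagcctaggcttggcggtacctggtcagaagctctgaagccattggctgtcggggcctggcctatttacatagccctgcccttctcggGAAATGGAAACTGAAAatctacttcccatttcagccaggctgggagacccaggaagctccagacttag
Irgm1, chr11:48871371-48871670, minus strand: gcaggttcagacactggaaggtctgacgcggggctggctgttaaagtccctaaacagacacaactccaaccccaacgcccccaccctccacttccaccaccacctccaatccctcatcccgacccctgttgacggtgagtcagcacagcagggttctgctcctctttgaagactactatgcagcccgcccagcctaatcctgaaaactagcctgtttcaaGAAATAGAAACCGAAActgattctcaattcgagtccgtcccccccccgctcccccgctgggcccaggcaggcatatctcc
Oas1g and Irgm1 each hold 2 overlapping matches and Oas3 holds 1. The Cybb promoter, by the same search, holds 3.

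In the MHC class I list, 4 of 23 tested genes were higher, H2-M2 among them. H2-Q6, of the Qa region, had 12.4, 10.6 and 6.95 CPM in KO and 3.22, 3.37 and 3.06 CPM in WT libraries (log2 fold change 1.63, adjusted p = 0.0053). H2-Q7, its neighbour, had 7.29, 6.71 and 3.65 CPM in KO and 1.85, 1.72 and 2.14 CPM in WT libraries (log2 fold change 1.63, adjusted p = 0.023). The 2 are close copies of each other and of other class I genes, so reads may be split between them. Nlrc5, the activator of class I genes, rose by 1.62 (adjusted p = 0.041). H2-Q7 was lost without KO replicate 1 or 2 or WT replicate 1 or 2 and Nlrc5 without KO replicate 1 or 2 or WT replicate 1 or 3, at adjusted p up to 0.13, and 2 members were called without KO replicate 2 or WT replicate 1. In the class II list none of 19 was called, 6 had an unadjusted p under 0.05 (20.5% of all genes did), DESeq2 called 1 higher and 1 lower and limma voom 1 lower. Cd74, the invariant chain, had 12562, 13966 and 6618 CPM in KO and 7975, 9332 and 10898 CPM in WT libraries, which overlapped.

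Genes of lipid mediators moved in both directions. Of 22 tested eicosanoid and phospholipase genes, 6 were higher and 1 lower. Ptgir, the prostacyclin receptor, had 84.8, 74.1 and 54.4 CPM in KO and 3.66, 13.5 and 4.47 CPM in WT libraries (log2 fold change 3.29, SE 0.43, adjusted p = 0.00033), and 4.13 without WT replicate 2. Pla2g2d, a secreted phospholipase A2, had 47.4, 7.75 and 5.45 CPM in KO and 0.0805, 0.541 and 0.137 CPM in WT libraries. KO replicate 1 carried it, with a log2 fold change of 6.21 (adjusted p = 0.012) that was 4.59 without that library and 7.51 without WT replicate 2, and the call was lost without WT replicate 1 or 3 (adjusted p up to 0.077). Pla2g7, which degrades platelet-activating factor, Ptgs1, the cyclooxygenase COX-1, and Pla2g6 rose by 1.92, 1.90 and 0.84 (adjusted p = 0.041, 0.042 and 0.040). The calls of these 3 were lost without either of WT replicates 1 and 2, among others. The list had 2 higher members without WT replicate 1 and 3 without KO replicate 2, WT replicate 2 or WT replicate 3. Alox5ap, the protein that presents arachidonic acid to 5-lipoxygenase, was the one that fell, to 1781, 1566 and 2173 CPM in KO libraries, against 4403, 3315 and 2737 CPM in WT libraries. The groups did not overlap (log2 fold change -0.92, SE 0.23, adjusted p = 0.036), but the call was lost without KO replicate 1 or 2 or WT replicate 1 or 2 (adjusted p up to 0.13).

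Among the genes that fell were several of mature alveolar macrophages. Ear2, a ribonuclease that these cells make in large amounts, had 1618, 1669 and 1935 CPM in KO and 5209, 3838 and 3139 CPM in WT libraries (log2 fold change -1.22, adjusted p = 0.0071). Ear1, of the same family, had 416, 383 and 434 CPM in KO and 1473, 967 and 726 CPM in WT libraries (log2 fold change -1.36, adjusted p = 0.0047). The groups did not overlap in either gene. WT replicate 1 was the highest library for both, and without it they were -1.0 and -1.04, still called. Ear6, of the same family, went the other way, with 683, 124 and 242 CPM in KO and 16.5, 12.5 and 10.7 CPM in WT libraries (log2 fold change 4.72, SE 0.65, adjusted p = 0.00072), or 3.79 without KO replicate 1. The family consists of near copies, so counts of each member are uncertain. Fabp1, a fatty acid binding protein, had 707, 878 and 931 CPM in KO and 3118, 2515 and 1322 CPM in WT libraries (log2 fold change -1.47, SE 0.29, adjusted p = 0.0095). Clec4b1, a C-type lectin receptor, had 106, 112 and 142 CPM in KO and 371, 284 and 217 CPM in WT libraries (log2 fold change -1.28, SE 0.23, adjusted p = 0.0047).

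In the list of alveolar macrophage identity, the 3 lower members were Ear1, Ear2 and Fabp1, and the 3 higher ones Ctsk, Slc39a2 and Bhlhe41. Its median was 0.19 with all libraries and -0.04 without WT replicate 1. Bhlhe41, a repressor needed for the self-renewal of these macrophages, had 163, 674 and 433 CPM in KO and 40.6, 64.4 and 132 CPM in WT libraries (log2 fold change 2.42, adjusted p = 0.0093). Its call was lost without WT replicate 1 or 2 (adjusted p up to 0.071), and the fold change was 3.01 without WT replicate 3. Of 53 macrophage transcription factors, 3 were higher and 1 lower, with 1 higher without KO replicate 2 or WT replicate 1 and none without WT replicate 2. Cebpd, a C/EBP factor, fell to 1.43, 2.44 and 1.99 CPM in KO libraries, against 9.13, 4.42 and 4.74 CPM in WT libraries (log2 fold change -1.64, adjusted p = 0.019, lost without KO replicate 1 or 3 or WT replicate 1, adjusted p up to 0.073).

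Further genes that fell were also named only where the groups did not overlap. Klk8, a secreted serine protease, had 18.8, 23.3 and 26.2 CPM in KO and 77.4, 59.9 and 41.8 CPM in WT libraries (log2 fold change -1.39, SE 0.25, adjusted p = 0.0047). Inka1, an inhibitor of the kinase PAK4, had 1.65, 2.00 and 3.88 CPM in KO and 19.9, 9.42 and 9.72 CPM in WT libraries (log2 fold change -2.37, SE 0.44, adjusted p = 0.0053). Rcn3, a calcium-binding protein of the endoplasmic reticulum, had 3.45, 2.86 and 4.27 CPM in KO and 11.2, 11.9 and 8.49 CPM in WT libraries (log2 fold change -1.58, SE 0.28, adjusted p = 0.0037). Selenow, a small selenoprotein, fell to 362 ± 53.6 CPM in KO, against 754 ± 218 CPM in WT cells (SD, log2 fold change -1.06, adjusted p = 0.017), and was lost without KO replicate 2 (adjusted p = 0.080). Mgst3, a glutathione transferase, had a log2 fold change of -1.03 (adjusted p = 0.030) and was lost without KO replicate 1 or 2 or WT replicate 1. S100a10, the partner of annexin A2, had one of -0.89 (adjusted p = 0.042) and was lost without KO replicate 1 or 2 or WT replicate 1 or 2 (adjusted p up to 0.15). Of the 66 lower genes, 47 were highest in WT replicate 1, 12 in WT replicate 2 and 7 in WT replicate 3.

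**Figure D3:**
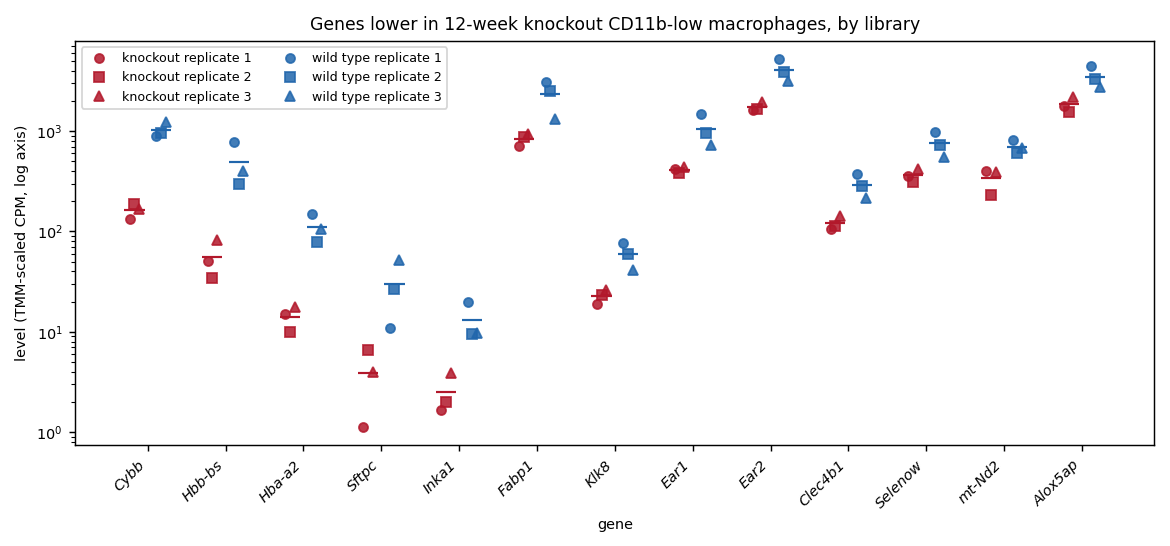
Level of 13 genes lower in knockout cells, in TMM-scaled CPM on a log axis, with 1 point per library and a bar at the group mean. Knockout libraries (red) stand left of wild-type libraries (blue), and WT replicate 1 (circle) is the highest library for Ear1, Ear2, Fabp1 and Alox5ap but not for Cybb or Sftpc.

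Genes of other cell types moved with the genotype. Of 30 tested T and NK cell markers, 18 were higher in KO libraries and none lower, with a median log2 fold change of 3.66. Summed over the 7 genes of the T cell receptor complex (Cd3d, Cd3e, Cd3g, Cd247, Trac, Trbc1 and Trbc2), the level was 50.01, 114 and 50.5 CPM in KO libraries and 1.37, 5.79 and 2.01 CPM in WT libraries. In bulk RNA, more cells of a type and more RNA per cell cannot be told apart. Cd3e, a signalling chain of the receptor, had 12.2, 32.3 and 10.6 CPM in KO and 0.241, 0.732 and 0.411 CPM in WT libraries (log2 fold change 5.27, SE 0.77, adjusted p = 0.00083), and 4.58 without KO replicate 2. Cxcr6, a chemokine receptor of tissue lymphocytes, had 18.1, 89.2 and 58.0 CPM in KO and 0.966, 0.986 and 1.09 CPM in WT libraries (log2 fold change 5.76, SE 0.69, adjusted p = 0.00022). Il7r, the interleukin 7 receptor, had 12.6, 25.2 and 12.2 CPM in KO and 0.483, 0.891 and 0.456 CPM in WT libraries (log2 fold change 4.73, SE 0.50, adjusted p = 6.3e-05). KO replicate 2 was the highest KO library in all 18 called members. The list had 11 calls without KO replicate 2 and 10 without WT replicate 1. Summed, the whole list had 1303 to 1457 CPM of the library total in KO and 1387 to 1598 in WT libraries, and most of it was Cd2, an adhesion molecule, with 1315 ± 182 CPM in KO and 1559.5 ± 254 CPM in WT cells (SD).

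Markers of other types were fewer. Of 13 tested neutrophil markers, S100a8 and Il1r2 were higher, while Ly6g and Elane had no count in any of the 6 libraries, and the summed level of the list was 185 to 236 CPM of the library total in KO and 102 to 125 in WT libraries. S100a8, an alarmin subunit, had 138, 35.5 and 112 CPM in KO and 50.4, 27.8 and 23.9 CPM in WT libraries (log2 fold change 1.49, adjusted p = 0.040, lost without KO replicate 1 or 3 or WT replicate 2 or 3, adjusted p up to 0.12). Of 30 monocyte markers, 3 were higher, among them Tmem176a and Ly6c2 at low levels, with 1 call without KO replicate 2 or WT replicate 1 and none without WT replicate 2. Eosinophil markers, of which 1 of 5 was higher, summed to 128 to 618 CPM in KO and 10.96 to 18.5 in WT libraries. Ear6 was the called member and made up most of the KO sums. Epx and Il5ra had no count in any of the 6 libraries, and Ccr3 had 0, 4 and 5 raw counts in KO and 0 in each WT library. Of 17 dendritic cell markers, which summed to 88.2 to 138 CPM in KO and 37.5 to 45.7 in WT libraries, Ccl17 was higher, and of 11 B cell markers, the kinase gene Blk, which was lost without KO replicate 2 or WT replicate 1 or 3. Of 12 tested erythroid genes, the 4 globins were lower. Summed, they had 97.1, 64.2 and 139 CPM in KO libraries and 1291, 541 and 719 CPM in WT libraries, and none of them was called without WT replicate 1, when adjusted p reached 0.099. Without KO replicate 1 there were 2 globin calls and without KO replicate 2 there was 1. Of 18 lung epithelial markers, Sftpc, the surfactant protein C gene, fell to 1.13, 6.59 and 3.98 CPM in KO libraries, against 10.9, 27.0 and 52.4 CPM in WT libraries (log2 fold change -2.95, adjusted p = 0.049). It was lost without any one of the 6 libraries, and was -3.57 without KO replicate 2 and -2.28 without WT replicate 3. The part of these cells in the macrophage genes above was not tested.

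The lists of ribosomal and respiratory genes had medians below 0, with 1 call in 3 lists and groups that overlapped at list level for the nuclear genes, where KO replicate 3 lay at -0.24 for both lists and WT replicate 3 at -0.28 for ribosomal and -0.26 for respiratory genes, relative to the WT mean. Of 78 cytosolic ribosomal protein genes, 4 had a higher mean in KO, none was called by edgeR, 42 had an unadjusted p under 0.05 (20.5% of all genes did), DESeq2 called 12 lower and edgeR 14 without KO replicate 3. Their median log2 fold change was -0.57, and -0.42 without WT replicate 1. Rps3 had 1984, 1559.6 and 3278 CPM in KO and 3822, 3622 and 3132 CPM in WT libraries, which overlapped. Of 66 nuclear genes of the respiratory chain, 4 had a higher mean in KO, none was called by edgeR, 33 had an unadjusted p under 0.05 and DESeq2 called 3 lower (edgeR 2 without KO replicate 3), with a median of -0.56, or -0.37 without WT replicate 1. Cox4i1, a subunit of cytochrome c oxidase, had 1575, 1083 and 1857 CPM in KO and 2377, 2293 and 1788 CPM in WT libraries. Of the 8 tested mitochondrially encoded genes, mt-Nd2, a complex I subunit, was called, with 398, 230.1 and 393 CPM in KO and 820.0, 607 and 673 CPM in WT libraries (log2 fold change -1.04, adjusted p = 0.038, lost without KO replicate 2 or 3 or WT replicate 1, 2 or 3, adjusted p up to 0.17). These medians ranged from -0.65 to -0.57 for ribosomal and from -0.65 to -0.56 for nuclear respiratory genes over the other library scalings, of which upper quartile factors moved the median of all genes to -0.12. Of 34 antioxidant genes none was called by edgeR, 10 had an unadjusted p under 0.05 (20.5% of all genes did), and DESeq2 called 4 higher and 1 lower and limma voom 1 higher.

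The map of list medians shows how far single libraries set these shifts. For T and NK cell markers KO replicate 2 lay 2.82 above the WT mean on a log2 scale with 0.5 added to each CPM, and KO replicates 1 and 3 lay 1.5 and 1.45 above. For lipid-associated macrophage genes KO replicate 1 was highest at 1.13, and for ribosomal proteins KO replicate 2 was lowest at -0.79. Matrix proteases were even, at 0.95, 0.92 and 0.91.

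**Figure D4:**
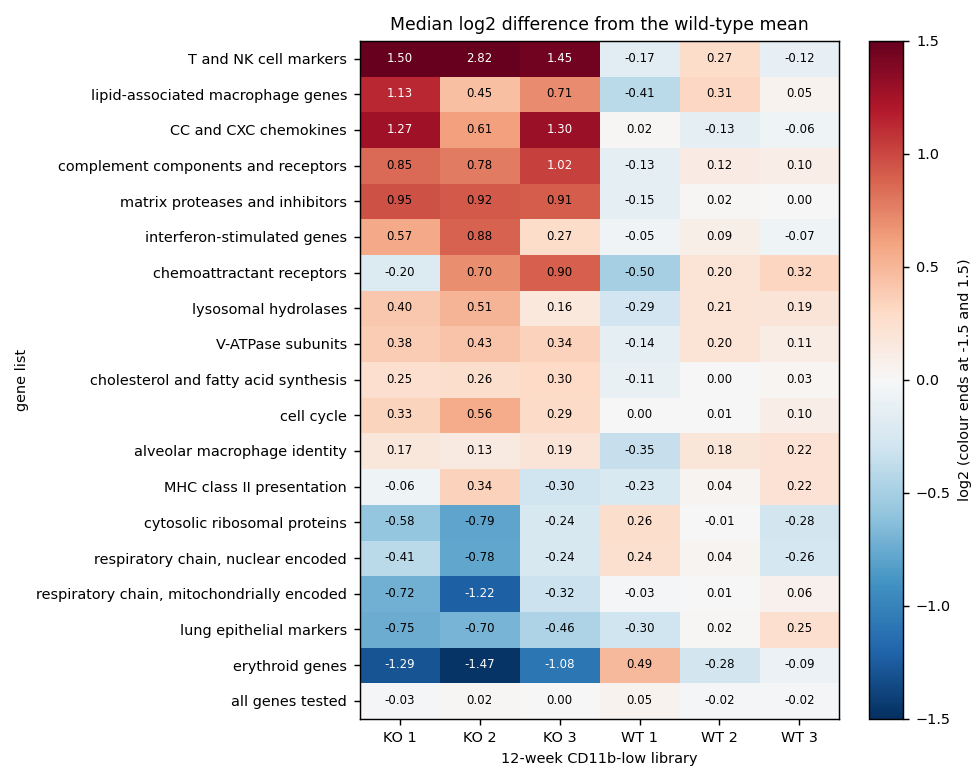
Median over the tested members of each gene list of the log2 difference of a library's CPM from the mean of the 3 wild-type libraries, with 0.5 added to each CPM, for knockout libraries on the left and wild-type libraries on the right. Red is above and blue below the wild-type mean, and all genes tested lie within 0.05 of 0 in each library.

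The KO libraries differed among themselves. The ratio of the highest to the lowest KO library was 2.08 at the median of the 346 higher genes, and above 3-fold in 95. KO replicate 1 was the highest KO library in 173 of them, replicate 2 in 125 and replicate 3 in 48. By list, replicate 1 was highest in all 6 called lipid-associated macrophage genes, all 4 called MHC class I genes, 5 of 7 chemokines and 5 of 6 matrix proteases. Replicate 2 was highest in all 3 called transcription factors, Bhlhe41, Maf and Runx3, and in all 18 called T and NK cell markers. Which cells the RNA of these factors came from was not tested. Which mice made up each pool is not given.

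At 4 weeks the same genotypes differed in far fewer genes, in libraries that share no sample with those of 12 weeks. There 13 genes were called, 0.0979% of those tested, and 10 of them were among the 12 tested erythroid genes. The median log2 fold change of that list at 4 weeks was -5.12. Of the 412 genes of 12 weeks, 256 (62.1%) had the same sign at 4 weeks, against 54.3% of all genes tested, and 28 (6.80%) also had an unadjusted p under 0.05 at 4 weeks, against 0.970% of all genes. The 12-week higher genes had a median log2 fold change of 0.07 at 4 weeks, and the lower genes of -0.10. Called at both ages were Cybb, the globins Hba-a1, Hba-a2, Hbb-bs and Hbb-bt, and Dscaml1 and Evx2, which are named here after their values were seen.

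The difference between the ages was tested as an interaction, and 33 genes (0.248%) were called, all with a positive value of the 12-week minus the 4-week log2 fold change. Of them 31 were also called at 12 weeks alone. Fstl1 had 11.1, 24.9 and 6.67 CPM in KO libraries at 4 weeks, against 3.65, 4.08 and 3.84 CPM in WT libraries, so that no KO library overlapped WT there (log2 fold change 1.88, adjusted p = 0.25 at 4 weeks). Its log2 fold change grew by 4.63 between the ages (adjusted p = 0.0045). Anpep had 5.21, 6.14 and 5.09 CPM in KO libraries at 4 weeks and 1.96, 2.09 and 3.14 CPM in WT libraries, and grew by 3.57 (adjusted p = 0.00043). Cxcr6 had 0.132, 0.310 and 0.143 CPM in KO libraries at 4 weeks and 0.555, 1.201 and 0.302 CPM in WT libraries, a low level in both, and its log2 fold change differed by 7.55 (adjusted p = 0.0045). The count of 33 fell to 3 without KO replicate 3 of 4 weeks, to 13 without WT replicate 2 of 4 weeks, and to 21 without KO replicate 1, WT replicate 1 or WT replicate 3 of 12 weeks.

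**Figure D5:**
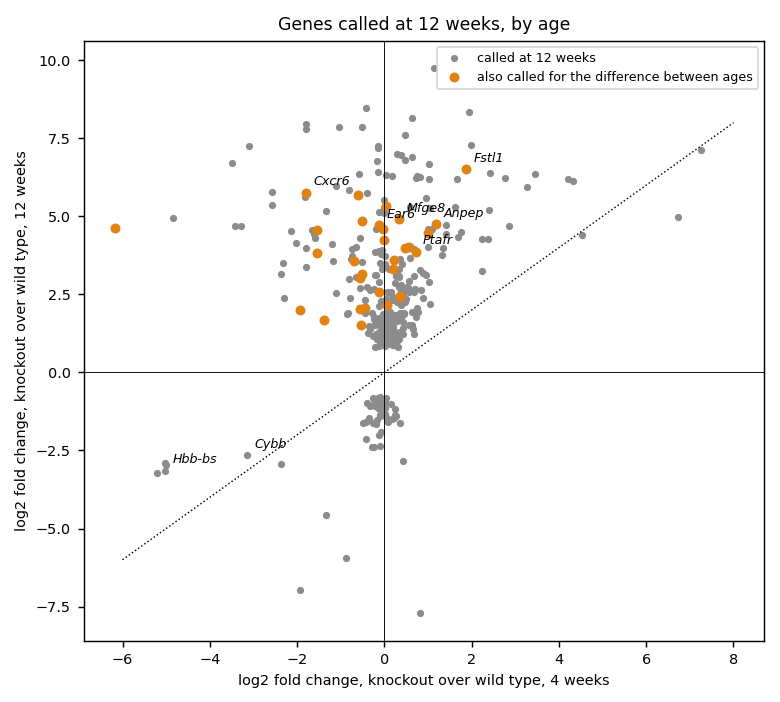
Log2 fold change of knockout over wild type at 4 weeks (x axis) and at 12 weeks (y axis) for the 412 genes called at 12 weeks, with the 31 that were also called for the difference between ages in orange. The dotted line marks equal values, and most genes stand near 0 at 4 weeks while Cybb and Hbb-bs are low at both ages.

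The 4-week levels lay nearer to one or the other 12-week group. Of the 346 higher genes, the mean of all 6 CD11b-low libraries of 4 weeks was nearer to the WT mean of 12 weeks in 233 and nearer to the KO mean in 113 on the log2 scale. The split was counted for called genes only, so no share over all genes tested stands beside it. The 233 include all 18 T and NK cell markers, all 7 chemokines and all 6 lipid-associated macrophage genes that were called. Ctsk, for example, had 924 ± 179 CPM in KO and 667 ± 163 CPM in WT cells at 4 weeks (mean ± SD), beside the 1032 ± 358 CPM of WT cells at 12 weeks. The 113 include all 5 called cell cycle genes, both Toll-like receptor genes called and 3 of 4 sterol and fatty acid synthesis genes. Soat1 had 442 ± 58.8 CPM in KO and 464 ± 45.5 CPM in WT cells at 4 weeks, when KO cells of 12 weeks had 464 ± 151 and WT cells of 12 weeks 199 ± 79.2. Plek, which encodes pleckstrin, had 963 ± 77.9 CPM in KO and 997 ± 103 CPM in WT cells at 4 weeks, against 967 ± 307 CPM in KO and 453 ± 123 CPM in WT cells at 12 weeks.

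Among the 66 lower genes, 45 had 4-week levels nearer to the KO mean of 12 weeks and 21 nearer to the WT mean. The 21 include Cybb and the 4 globins, which were also called between the genotypes at 4 weeks. For these the 4-week mean over both genotypes describes neither genotype. Ear2 had 1716 ± 180.1 CPM in KO and 1785 ± 64.4 CPM in WT cells at 4 weeks, against 1740.5 ± 170.2 CPM in KO and 4062 ± 1053 CPM in WT cells at 12 weeks. Ear1 had 395 ± 44.4 CPM in KO and 418 ± 21.5 CPM in WT cells at 4 weeks, against 411 ± 25.8 CPM in KO and 1055 ± 381 CPM in WT cells at 12 weeks. In both genes the WT group of 12 weeks was the one that stood apart from the other 3 CD11b-low groups. Age and any difference in collection between the ages cannot be told apart.

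The CD11b-high cells of 12-week KO mice give the levels of these genes in the other gate. Fstl1 had 1788, 1013 and 1035 CPM in CD11b-high KO libraries, and Mfge8 had 3587, 1819 and 1444 CPM there. Mmp12 had 1055, 2132 and 843 CPM there. For these 3 genes each CD11b-high library was above the CD11b-low KO library of the same number. Cxcr6, of the T cell markers, had 14.6, 62.8 and 21.7 CPM there, each below the CD11b-low KO library of the same number but overlapping that group. Deviations of same-numbered libraries of the 2 gates had correlations of 0.429, 0.353 and 0.113, against -0.362 to 0.067 for unlike numbers. The third was thus little above the unlike pairs. Whether a shared number marks shared mice is not given, and the main fit took all 15 libraries as independent. No test between the gates is given here.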

How the data were processed

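RNA-seq of sorted alveolar macrophages gave 15 libraries in 5 groups of 3. The authors deposited whole-number counts per gene and library. STAR and featureCounts of Subread are named, per the submitters' processing notes. The genome build, annotation and strand setting are not given in the sources used here, so reads of a gene and of an overlapping antisense gene cannot be told apart. The table had 40780 rows, of which 270 repeated a gene and were removed, leaving 40510 genes.

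Counts were tested with edgeR 4.0.16 (R 4.3.3, limma 3.58.1) by the robust quasi-likelihood test after TMM scaling and filterByExpr (minimum count 10, minimum total 15). All 15 libraries entered the fit with 1 coefficient per group, which left 10 residual degrees of freedom, and 13284 genes were tested. P-values were adjusted by Benjamini-Hochberg within each comparison and called under 0.05. SE is the size of the log2 fold change over the square root of F. CPM values are TMM-scaled, and errors are SD over 3 libraries. The summed marker levels are CPM of the library total. The difference between ages was tested as an interaction contrast.

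On simulated counts with 100 genes changed by each fold, the test recovered 13% at 2-fold and 69% at 4-fold over 13059 genes and called 2 unchanged genes. Depth was 23445956 to 36367786 counts in the 12-week CD11b-low libraries.

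The genes named were Cybb, its neighbours and the sort markers, then called genes of at least 10 CPM with no overlap of libraries, namely the 30 largest rises and 20 largest falls by fold, the 15 and 10 largest by CPM, and the 10 largest differences between ages, and up to 8 called members of each list. The members and the 55 lists were chosen with earlier results of these data known; 1548 of 1562 list members matched by symbol. Promoters are from RefSeq GRCm38.p6. The alternatives were other sets of libraries, scalings and filters, DESeq2 1.42.0, limma voom, a replicate block, a test against a 1.5-fold change and leaving out each replicate. An alternative for the 4-week levels was chosen after seeing the data. Results that needed some withheld genes are not reported here.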

Additional observations from a re-analysis of the deposited data

Results flagged for a closer look

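In the 20 named genes given here the KO minus WT difference itself differed between 12 and 4 weeks, by edgeR's interaction contrast at an adjusted p under 0.05. Values are log2 fold change at 12 weeks minus that at 4 weeks. For markers of T cells it was 7.55 for Cxcr6, 6.29 for Cd247, 5.36 for Cd3g and 4.25 for Lck.

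Among secreted and surface proteins it was 4.84 for Ear6, 4.63 for Fstl1, 4.62 for Cd200r2, 4.57 for Mfge8, 3.57 for Anpep, 3.51 for Mmp12, 3.15 for Ptafr and 3.13 for Wfdc17. Slc11a1, the phagosomal metal transporter NRAMP1, differed by 3.93. Fkbp11 differed by 3.66, Ass1 by 3.48, Gng8 by 3.46, Lrrc27 by 3.37, Serpinb6b, a serine protease inhibitor, by 2.60 and Optn, the autophagy receptor optineurin, by 2.06.

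Tent5c, a poly(A) polymerase, differed by 4.82 without being called at 12 weeks. It had 1.84, 1.01 and 2.01 CPM in KO and 9.46, 37.0 and 7.74 CPM in WT libraries at 4 weeks, and 4.54, 2.95 and 3.39 CPM in KO and 2.58, 0.573 and 1.14 CPM in WT libraries at 12 weeks. The value was positive in all 20, and for Tent5c it came mostly from the 4-week libraries, where WT was higher. The cause was not tested.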

How the results depend on the processing

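None of the 141 named genes that were called turned its direction in any alternative compared gene by gene, where it was tested. Directions of single genes were not compared in the fit of the 9 libraries of 12 weeks, the CPM filter or DESeq2 with its own filter. Nor were they in the replicate block of 6 libraries or the test against a 1.5-fold change. For 12 named genes that were not called the log2 fold change changed sign. Leaving out each replicate gave -2.04 to 4.34 for Igkc, -0.54 to 0.33 for Cpa3, -0.0070 to 0.54 for Rac2, -0.20 to 0.49 for Abcg1, -0.072 to 0.29 for Npc2, -0.073 to 0.47 for Acaa2, -0.62 to 0.0145 for Fcer1g, -0.18 to 0.021 for Ctss, -0.95 to 0.69 for Zfp36, -0.50 to 0.21 for Eif2s3y, -0.047 to 0.53 for Ddx3x and -0.011 to 0.51 for Dynlt3. Limma voom with library weights gave -0.20 for Abcg1 and -0.025 for Acaa2. The median of the alveolar macrophage identity list also changed sign, to -0.04 without WT replicate 1 and -0.01 by limma voom. The 412 calls of 12 weeks became 189 in a fit of the 6 libraries alone, 219 with the 9 of 12 weeks, 1090 with no filter on low counts, 880 and 873 by DESeq2 on the same genes and with its own filter, and 182 against a 1.5-fold change. Higher calls were 175, 203, 813, 618, 614 and 169 in that order, and lower calls 14, 16, 277, 262, 259 and 13. Leaving out each replicate gave 230 to 426 calls, 207 to 399 higher and 23 to 97 lower, and a Cybb log2 fold change of -2.78 to -2.51. The split of higher and lower calls was 327 and 67 with RLE factors, 297 and 82 with upper quartile factors and 289 and 86 with library totals alone.

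Calls for the difference between ages were 151 by DESeq2 and 3 to 35 with each replicate left out, and 12-week calls repeated at 4 weeks were 22 to 29. Called list members, 123 in all, became 70 with 6 libraries, 262 with no filter, 217 by DESeq2 and 74 to 120 with a replicate left out. Of the 141 named genes that were called, 64 stayed called without each of the 6 libraries in turn. Of the 346 higher and 66 lower genes, 111 and 43 had 4-week levels nearer to KO without WT replicate 1, against 113 and 45 with it. The causes were not tested.

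Same-numbered KO and WT libraries had correlations of deviations of 0.364, 0.085 and 0.205. KO replicates 1 and 3 went best with the WT library of the same number, and KO replicate 2 with WT replicate 3 (0.167). The labels do not say whether a shared number marks a shared day or litter, so the main test assumed no pairing. A replicate block gave 629 calls with 15 libraries and 655 with 6, of which 139 and 146 were lower, 67 calls for the difference between ages and 49 repeated calls. With 3 libraries a group, changes near 2-fold were mostly below what the test recovered on simulated counts.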

Other observations

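T cell receptor segments of the gamma and delta chains rose beside the T cell markers, a group picked after its values were seen. Of the segments tested, 5 of 6 gamma, 2 of 2 delta, 1 of 1 alpha and 2 of 6 beta were called higher in KO libraries. Summed gamma segments had 5.79, 30.8 and 15.9 CPM in KO libraries and 0.121, 0.446 and 0.137 CPM in WT libraries. Summed delta segments had 1.53, 19.0 and 9.85 CPM in KO libraries and 0.0402, 0.286 and 0.0456 CPM in WT libraries. Summed beta segments had 9.06, 18.4 and 8.58 CPM in KO libraries and 0.322, 1.91 and 0.548 CPM in WT libraries. KO replicate 2 was highest in each sum, and every WT library lay below every KO library.

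Single genes of this group rest on few counts. Tcrg-V6, a gamma variable segment, had 25, 195 and 124 raw counts in KO libraries and 0, 3 and 0 in WT libraries. Trdv4, a delta variable segment, had 47, 556 and 273 raw counts in KO and 1, 8 and 0 in WT libraries. Il17a, the cytokine interleukin 17A, had 7, 39 and 28 raw counts in KO and 0, 1 and 0 in WT libraries (log2 fold change 5.54, adjusted p = 0.024). Cd163l1, a scavenger receptor known from gamma delta T cells, had 57, 513 and 106 raw counts in KO and 1, 1 and 0 in WT libraries. Segments of 1 chain resemble each other, so counts of single segments are uncertain.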
